A study of Mus musculus with 5 samples.

Results

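The comparison set the library labelled S_PXT1 against the library labelled PMSCV, 2 of the 5 RNA-seq libraries of the series. Both came from Ba/F3, an immortalised mouse pro-B cell line that needs interleukin-3 to live and is widely used to test whether an introduced gene can replace that signal. According to its title, the series deals with an oncogenic gene fusion of childhood leukaemia and with how stable its mRNA is. All 5 groups had received lentivirus: PMSCV, which names a murine stem cell virus vector and is taken here as the control, S_PXT1, S_PXT1_K118R, WT and WT_K118R. K118R is written as a lysine to arginine change. The labels do not say what S and WT stand for. The sources used here give no promoter for the constructs and do not say whether a line was a pool or a single clone. Each group had 1 library, so no difference described here has a replicate check and none carries a p-value.

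Chimeric genes in leukaemia often join part of a regulatory protein to an unrelated partner, and the joined transcript can carry the ends of the partner's mRNA. How long an mRNA lasts is set largely by its poly(A) tail, by proteins that bind its 3′ end and by reader proteins that recognise methylated bases. Blood progenitors are governed by transcription factors such as GATA2, which works in complexes bridged by the cofactor LDB1, and by coregulators such as CITED2, which competes with other proteins for the acetyltransferases CBP and p300 and is needed to maintain blood stem cells.

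The table listed 50867 genes under human symbols and identifiers, although the cells are from mouse. A mouse read was therefore counted only as far as it matched a human gene model, and levels are compared between libraries, not between genes. Whether every counted read came from mouse RNA was not tested. The total count was 266905 in PMSCV and 259047 in S_PXT1, and 250409 to 351693 in the other 3 libraries. The members were the 1547 genes that averaged 20 or more counts over the 5 libraries, called covered genes below. They took 84.2% of the counts in PMSCV and 92.5% in S_PXT1. Genes with at least 1 count numbered 11492 in PMSCV and 7393 in S_PXT1. S_PXT1_K118R resembled S_PXT1 in this, with 7044 genes, whereas WT and WT_K118R had 11712 and 11504. PXT1 itself was at 0 counts in every library, where up to 3 counts could have gone unseen, so the labels could not be checked by it. Of 22 markers expected of Ba/F3, 17 were at 0 in S_PXT1 and 8 in PMSCV, and only LCP1 and IKZF1 were covered.

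Most covered genes differed little between the libraries. Levels are given as CPM, counts scaled to a common library size by the trimmed mean of M values, on which 1 count equalled 3.56 CPM in PMSCV and 3.90 CPM in S_PXT1. The log2 ratio of S_PXT1 over PMSCV was taken after adding 1 CPM to each level, which understates the difference of low genes. Its median over covered genes was 0.20, a 1.15-fold shift towards S_PXT1, with quartiles at -0.13 and 0.39. A gene was called higher or lower past a 2-fold difference, and 1372 genes (88.7%) were not called. Higher genes numbered 54 (3.49%) and lower genes 121 (7.82%).

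The lower genes were concentrated among genes with few counts. Of 668 genes averaging 20 to under 50 counts, 30 were higher and 91 lower. Of 505 genes averaging 100 counts or more, 12 were higher (2.38%) and 7 lower (1.39%). The median log2 ratio was 0.02 among the former 668 genes and 0.28 among the latter 505. The median lower gene had 41 counts in PMSCV and 10 in S_PXT1, and the median higher gene 17.5 and 63.5. Folds below are ratios of scaled counts with an exact 95% interval in brackets. That interval reflects counting error alone, since reads that carry no molecular identifier need not come from separate molecules.

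The other 3 libraries showed which of the pair carried a difference. Of the 54 higher genes, S_PXT1 stood at least 2-fold above each of the other 4 libraries for 8 (0.517% of covered genes). For 2 genes (0.129%) both S_PXT1 and S_PXT1_K118R stood above the remaining 3 libraries. For 13 genes (0.84%) PMSCV alone was low, and these are kept apart. Without them 41 higher genes (2.67%) were left. Of the 121 lower genes, 48 (3.1%) were low in both S_PXT1 and S_PXT1_K118R against the remaining 3 libraries, and 28 more were low in S_PXT1 alone. PMSCV alone was high for 4.

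**Figure D1:**
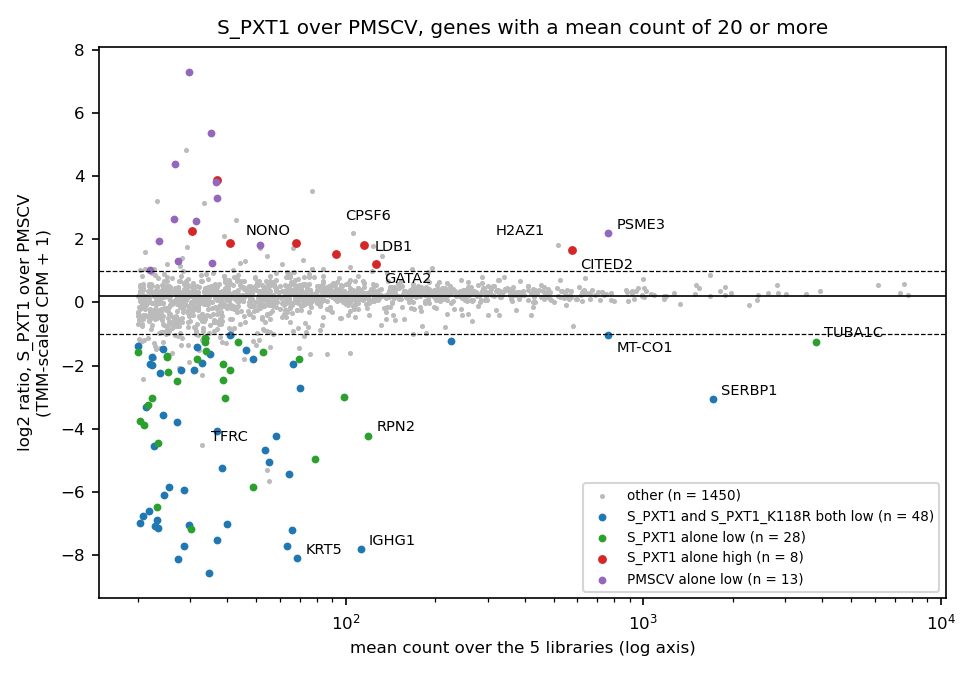
Each point is 1 of the 1547 covered genes, with its mean count over the 5 libraries on a log axis and its log2 ratio of S_PXT1 over PMSCV, and colours mark which libraries stood at least 2-fold apart. The solid line is the median of 0.20 and the dashed lines mark 2-fold; the genes far below 0 have mostly small mean counts, while CITED2, H2AZ1 and PSME3 are the higher genes with the most counts.

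Among the 8 genes high in S_PXT1 alone, CITED2, LDB1 and GATA2 had the most counts in that library. CITED2, counted on a gene of human chromosome 6, stood at 5033 CPM in S_PXT1 and 1600 in PMSCV. It was at 1584 in S_PXT1_K118R, 1761 in WT and 394 in WT_K118R. Only S_PXT1 was high, and WT_K118R lay well below the rest. With 450 counts in PMSCV and 1291 in S_PXT1 the fold was 3.15 (2.82 to 3.51). LDB1, on human chromosome 10, stood at 932 CPM in S_PXT1, 263 in PMSCV, 243 in WT, 307 in S_PXT1_K118R and 299 in WT_K118R. The 4 libraries other than S_PXT1 lay close together for this cofactor, and its fold was 3.54 (2.72 to 4.66). GATA2, on human chromosome 3, stood at 788 CPM in S_PXT1, 341 in PMSCV, 374 in WT, 330 in S_PXT1_K118R and 365 in WT_K118R. Here too the other 4 libraries formed a narrow band, and the fold was 2.31 (1.80 to 2.97).

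The other genes of this class were RNA-binding, chromatin and protein-modifying genes. Here and below, 5 counts in a row stand for PMSCV, S_PXT1, S_PXT1_K118R, WT and WT_K118R. NONO, a paraspeckle protein that binds RNA and DNA, had 48, 161, 23, 61 and 47 counts, a fold of 3.68 (2.65 to 5.19) over PMSCV. ASXL1, a Polycomb-associated chromatin protein that is often mutated in myeloid leukaemia, had 21, 72, 24, 42 and 45 counts, a fold of 3.76 (2.29 to 6.44). TRIM27, a ubiquitin and SUMO ligase, had 14, 62, 18, 32 and 26 counts, a fold of 4.86 (2.69 to 9.39). In each of these 3 genes S_PXT1 was at least 2-fold above the next library, as the rule of the class requires. ZDHHC3, an enzyme that attaches palmitate to proteins, had 59, 158, 71, 73 and 103 counts, a fold of 2.94 (2.16 to 4.03).

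The last model of the class, RBM14-RBM4, is a read-through that overlaps RBM4, a splicing regulator. RBM14-RBM4 had 7, 98, 4, 63 and 13 counts, whereas RBM4 had 78, 1, 90, 42 and 33. S_PXT1 was the highest library for RBM14-RBM4 and the lowest for RBM4. WT, next highest for RBM14-RBM4, was not the next lowest for RBM4. With overlapping models on 1 strand summed, the log2 ratio was 0.09 for this locus, so neither model is given a direction here.

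**Figure D2:**
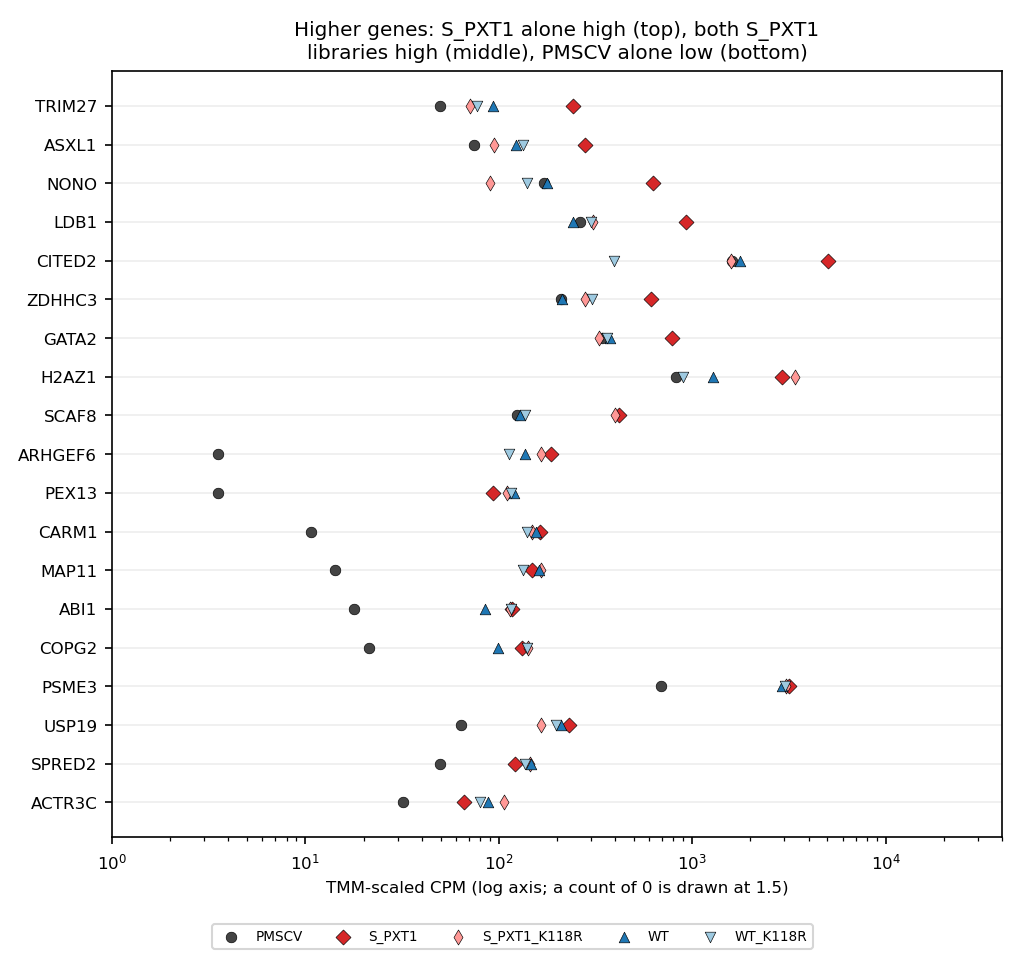
TMM-scaled CPM on a log axis for higher genes in the 5 libraries, 1 symbol per library. In the top 7 genes only S_PXT1 lies to the right, in H2AZ1 and SCAF8 both S_PXT1 libraries do, and in the bottom 10 genes PMSCV alone lies to the left.

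The list of blood progenitor transcription factors and LDB1 complex members held 38 genes in the table, of which 12 were covered. LDB1 and GATA2 were higher and 0 were lower, where 3.49% of all covered genes were higher and 7.82% lower. The median log2 ratio was 0.38 against 0.20 for all covered genes. Of the 12, 10 lay above the median of covered genes. The list's median was above it in all 8 settings of scaling, pseudocount and summing tried. Those settings recompute the same 2 libraries and all but 1 of 53 lists kept their side, so this says little about the list. SPI1, the PU.1 factor of myeloid and B cells, had 113 counts in PMSCV and 139 in S_PXT1, a fold of 1.35 (1.04 to 1.74), but 1 count in WT_K118R. The ETS factor ETV6 was at 85 and 100 counts, and the E-protein TCF12 at 102 and 114. RUNX2 and TCF4 had log2 ratios of 0.51 and 0.52, and CBFB and ZEB2 had 0.24 and 0.26. Thus the 10 uncalled members stood between -0.04 for IKZF1 and 0.52 for TCF4, with SSBP3, an LDB1 partner, at 0.40 and LMO4, a LIM-only protein, at 0.10. IKZF2 and PBX3, factors of lymphoid and progenitor cells that were named after their values were seen, had 31 and 53 counts in PMSCV and 67 and 101 in S_PXT1. Their folds were 2.37 (1.53 to 3.75) for IKZF2 and 2.09 (1.48 to 2.97) for PBX3.

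In the list of CITED and CBP/p300 coregulators CITED2 was the only called member of 9 covered genes. The median log2 ratio was 0.29, with 5 members above the median of covered genes and 4 below. The acetyltransferases themselves had few counts: EP300, which encodes p300, had 27 in PMSCV and 35 in S_PXT1, a fold of 1.42 (0.836 to 2.44). CREBBP, which encodes CBP, had 28 and 20, a fold of 0.783 (0.418 to 1.44). Both intervals included 1. HIF1A, whose product competes with CITED2 for p300, had a log2 ratio of 0.39, and the corepressor NCOR1 one of 0.40. Without CITED2 the summed counts of the list had a fold of 1.21 (1.08 to 1.36).

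H2AZ1 was the most abundant chromatin gene called higher, and it was high in both S_PXT1 libraries. This histone variant stood at 2904 CPM in S_PXT1 and 3412 in S_PXT1_K118R, with 821 in PMSCV, 1281 in WT and 895 in WT_K118R. S_PXT1 and S_PXT1_K118R were both above all others, and the fold over PMSCV was 3.54 (3.05 to 4.12). SCAF8, which binds the tail of RNA polymerase II, was the other gene of this pattern, with 35, 107, 101, 44 and 46 counts and a fold of 3.35 (2.27 to 5.06). Of the other covered histone genes, MACROH2A1 had a log2 ratio of 0.20 and H3-3B one of -0.27.

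Single members of other chromatin groups were higher while the groups were not displaced. In the SWI/SNF list, SMARCC2, a core subunit of that remodelling complex, was the only called gene of 12, with 83, 211, 115, 127 and 128 counts. S_PXT1 was the highest library, the fold over PMSCV was 2.79 (2.15 to 3.64), and the list's median log2 ratio was 0.21. CBX1, a heterochromatin protein that reads methylated histone H3, was the only called gene of 8 in the CBX and Polycomb list, whose median was 0.14. It had 57, 181, 68, 84 and 228 counts and a fold of 3.48 (2.57 to 4.77). CBX1 was high in WT_K118R as well. The 23 other remodellers and deacetylases had a median of 0.08, with 15 below the median of covered genes. Their single call, SRCAP, had 50 counts in PMSCV and 16 in S_PXT1, but its locus holds 5 overlapping models. One of these, AC106886.6, had 0 and 40, and the joint log2 ratio of the 5 was 0.26.

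The HMG list of 5 covered genes, with a median of -0.42, held 2 lower members. HMGB2, a DNA-bending protein of dividing cells, had 56, 6, 49, 19 and 67 counts, 8.51-fold lower in S_PXT1 (3.68 to 24.2). S_PXT1 was lowest and WT second lowest. HMGB1 had 71, 21, 22, 28 and 376 counts, so that WT_K118R stood apart at the high end. Its log2 ratio was -1.61 alone and -0.19 when summed with rows named as its pseudogenes.

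RNA-processing lists lay near the median of covered genes, with 1 or a few members outside 2-fold. CPSF6, a subunit of the cleavage factor that selects poly(A) sites, had 33, 140, 35, 164 and 159 counts. PMSCV and S_PXT1_K118R were both low, and the fold of S_PXT1 over PMSCV was 4.65 (3.16 to 7.02). It was the only called gene of 10 covered cleavage and polyadenylation factors, whose median log2 ratio was 0.23. NUDT21, its partner in the same factor, was at 0.38, and PAPOLA, the poly(A) polymerase, at 0.13. Both are named after their values were seen.

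Among 19 covered SR and TRA2 splicing factors only SRSF10 was called. It had 139, 262, 85, 195 and 151 counts, highest in S_PXT1, and a fold of 2.07 (1.68 to 2.56). The list's median was 0.05, with 12 members below the median of covered genes, among them SRSF7 at -0.27 and U2AF2 at -0.28. The 17 covered genes of the spliceosome core held 0 calls and had a median of 0.11. PRPF8, the scaffold of the catalytic core, was lowest at -0.88. SNW1, a splicing and transcription cofactor outside these lists, had 17, 67, 19, 69 and 23 counts, high in S_PXT1 and WT, and a fold of 4.32 (2.51 to 7.85).

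Of 32 covered hnRNP proteins NONO alone was called, and the median was 0.22. The 22 covered RBM and KH-domain proteins had a median of 0.19 and 3 calls. Of these, KHDRBS1, the SAM68 splicing regulator, had 72 counts in PMSCV and 144 in S_PXT1, a fold of 2.19 (1.64 to 2.95). RBM42 had 15 and 37, a fold of 2.70 (1.45 to 5.30), and RBM4 has been described with its read-through. The 8 covered genes of the list of DYRK, CLK and SRPK splicing kinases had a median of 0.23 and 1 call. That call was HIPK3, a homeodomain-interacting kinase, with 7, 59, 39, 13 and 49 counts. For HIPK3 both PMSCV and WT were low, and the fold was 9.24 (4.22 to 24.0).

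Regulators of mRNA stability formed the largest RNA list, with 39 covered genes, 2 higher and 3 lower, and a median log2 ratio of 0.25. PABPC1, the main cytoplasmic poly(A)-binding protein and the covered gene with the most counts in S_PXT1, had 6150, 8495, 5818, 7673 and 9339 counts. Its fold of 1.51 (1.47 to 1.57) was above the shift of covered genes but under the 2-fold call. The summed counts of the list had a fold of 1.18, and of 1.06 (1.04 to 1.08) without PABPC1. UPF2, a factor of nonsense-mediated decay, had 39 counts in PMSCV and 91 in S_PXT1, a fold of 2.56 (1.74 to 3.82). G3BP2, a stress granule protein named after its values were seen, had 109 and 210, a fold of 2.11 (1.67 to 2.69).

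The 3 lower members of that list, of 39 covered, were near the share of 7.82% over all covered genes. They were SERBP1, ELAVL1 and ZFP36L1. SERBP1, which binds mRNA and ribosomes, had 2271, 248, 42, 2866 and 3131 counts. Both S_PXT1 libraries were far below the other 3, S_PXT1_K118R lowest, and S_PXT1 was 8.35-fold lower than PMSCV (7.32 to 9.56). With rows named as SERBP1 pseudogenes added, the log2 ratio moved from -3.06 to -1.86. ELAVL1, the HuR protein that stabilises AU-rich mRNAs, had 33, 2, 14, 18 and 35 counts, 15.1-fold lower (3.85 to 129). ZFP36L1, which promotes decay of such mRNAs, had 55 counts in PMSCV and 21 in S_PXT1, 2.39-fold lower (1.42 to 4.16).

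None of 7 covered m6A writers, erasers and YTH readers was called, and their median was 0.29. YTHDF2, which recruits decay factors to methylated mRNA, had 137 counts in PMSCV and 165 in S_PXT1, and YTHDF3 had 168 and 216. VIRMA, a subunit of the methyltransferase complex, was the highest member at 0.79 and the demethylase ALKBH5 the lowest at -0.74. Of 13 covered DEAD and DEAH box helicases 1 was lower, EIF4A1, at -1.30, which lies in a locus of overlapping models and moved to -0.52 when they were summed. The helicase list had a median of 0.28.

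The 13 genes low in PMSCV alone are a separate set, since their ratio rests on the control library. PSME3, an activator of the nuclear proteasome, had 194, 814, 781, 994 and 1025 counts. The 4 other libraries lay close together, and the fold of S_PXT1 over PMSCV was 4.60 (3.93 to 5.41). ARHGEF6, an exchange factor for RAC and CDC42, had 1, 48, 42, 47 and 38 counts, a ratio of 52.6 (9.0 to 2121). CARM1, an arginine methyltransferase and transcriptional coactivator, had 3, 42, 38, 53 and 47, a ratio of 15.3 (4.90 to 77.4). PEX13, a peroxisomal import protein, had 1 count in PMSCV and 24 to 41 elsewhere.

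The remaining members of this set showed the same order with small counts. They were ABI1, COPG2, MAP11, USP19, SPRED2 and ACTR3C, plus MTATP6P1 and 2 clone-named models. ABI1, a regulator of actin assembly, had 5 counts in PMSCV and 29 to 39 elsewhere, and the coat subunit COPG2 had 6 and 34 to 47. USP19, a deubiquitinase, had 18 in PMSCV against 42 to 72, and SPRED2, an inhibitor of RAS signalling, had 14 against 31 to 50. For ACTR3C, with 9 counts in PMSCV and 17 in S_PXT1, the interval of 0.873 to 5.27 included 1. The proteasome list, with 11 covered genes and a median of 0.21, had PSME3 as its only call, and so that call also rests on the control.

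A further 31 higher genes fitted none of these patterns. EHD4, an endosomal recycling protein, had 10, 108, 117, 24 and 126 counts, with PMSCV and WT low. SLC7A5, the large neutral amino acid transporter, had 11, 63, 62, 6 and 72, again with PMSCV and WT low, and a fold of 6.28 (3.28 to 13.2). VRK1, a chromatin kinase, had 1, 33, 0, 49 and 62, with PMSCV and S_PXT1_K118R at or near 0. AP2A1, a clathrin adaptor, had 4, 36, 29, 42 and 5, with PMSCV and WT_K118R low. In these 4 genes a library other than PMSCV was also far from the rest. BTK, the B-cell receptor kinase, named after its values were seen, had 10, 28, 28, 29 and 11 counts and a fold of 3.07 (1.45 to 7.08).

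Of the 121 lower genes, 48 were low in both S_PXT1 libraries. Of these, 15 belonged to the lists of immunoglobulin, epithelial, prostate, muscle or matrix genes. Of the 1547 covered genes those lists held 6 keratins, 3 immunoglobulin, 3 prostate, 7 matrix, 2 smooth muscle, 1 desmosome and 1 cornified envelope gene. Such genes could pass the filter on counts through the libraries in which they were high. The summed level of the 48, low in both S_PXT1 libraries by the selection, was 3672 CPM in S_PXT1 and 2347 in S_PXT1_K118R. It lay between 20995 and 21582 in the other 3 libraries. SERBP1 alone gave 8076 CPM of the sum in PMSCV. Only 4 of the 48 averaged 100 counts or more.

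Genes of tissues other than the labelled cell line made up much of the extreme low end. KRT5, a keratin of basal epithelium, had 76, 0, 0, 106 and 161 counts, at least 23.1-fold lower in S_PXT1. The desmosome gene DSP had 37, 0, 0, 58 and 54 counts, at least 11.2-fold lower. KLK3, a kallikrein of the prostate list, had 51, 0, 0, 62 and 71, at least 15.5-fold lower. IGHG1, an immunoglobulin heavy chain, had 310, 1, 2, 238 and 10, a ratio of 283 (50.4 to 11204). The 3 libraries other than the S_PXT1 pair all held counts of these genes, in unequal amounts. COL1A2 had 90, 3, 4, 68 and 102 counts, while COL1A1, another chain of the same collagen, chosen after its values were seen, had 162, 100, 91, 142 and 236.

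Summed over whole lists, the 29 matched keratins had 1219.8 CPM in PMSCV and 3.90 in S_PXT1, and the 17 immunoglobulin genes 2699 and 15.6. Prostate epithelium genes summed to 1102 and 31.2 CPM, and collagens and fibroblast matrix to 2777 and 1185. The smooth muscle list summed to 989 CPM in PMSCV and 655 in S_PXT1, where TPM1, also expressed outside muscle, gave 166 of 168 counts. In S_PXT1, 28 of 29 keratins, 14 of 17 immunoglobulin genes and 16 of 19 prostate genes were at 0. Erythroid markers were at 0 to 6 counts and T and NK cell markers at 0 to 12 in every library. These marker levels divided the libraries in the same way as the number of genes detected, and their part in the lower calls was not tested. In such bulk data fewer cells of a type and less RNA per cell cannot be told apart. Nor do these counts show that cells of those tissues were in the cultures, and the source of the reads could not be determined.

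**Figure D3:**
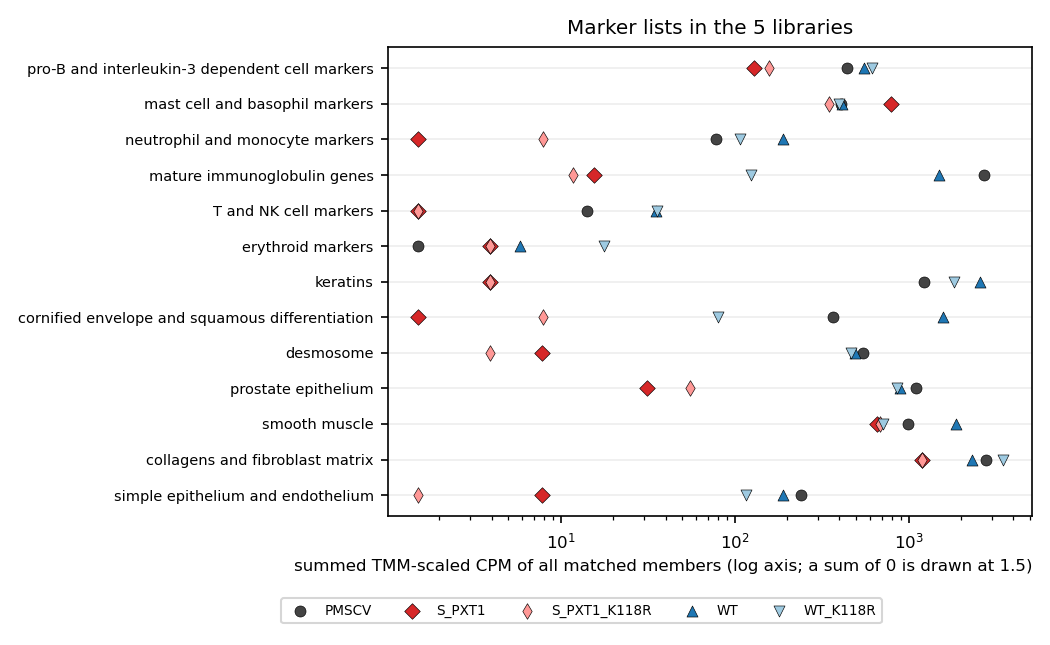
Summed TMM-scaled CPM of every matched member of 13 marker lists, on a log axis, 1 symbol per library. The S_PXT1 libraries lie left of the other 3 for keratins, desmosome, prostate and immunoglobulin genes. The mast cell list is highest in S_PXT1 through GATA2 alone, with its other members at 0 there.

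The pro-B list and the neutrophil and monocyte list had fewer counts in S_PXT1 than in PMSCV. The mast cell list had 115 counts in PMSCV and 202 in S_PXT1, but GATA2 gave 96 of the former and all of the latter. Of its 14 matched members 6 were at 0 in PMSCV and 13 in S_PXT1, so the markers other than GATA2 were also lower there. The 22 pro-B and interleukin-3 dependent cell markers summed to 125, 33, 40, 190 and 207 counts. LCP1, the leukocyte plastin that bundles actin, had 67, 3, 3, 101 and 117 of these, 20.4-fold lower in S_PXT1 than in PMSCV (6.68 to 101). IKZF1, the Ikaros factor of lymphoid cells, had 27, 24, 34, 31 and 28, with no library apart. Neutrophil and monocyte markers summed to 22 counts in PMSCV and 0 in S_PXT1. CD74, the invariant chain of antigen presentation, had 19, 0, 0, 46 and 58 counts.

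Of the further genes low in both S_PXT1 libraries, several are long or nuclear RNAs and stress or secretory genes. NEAT1 and MALAT1, nuclear long noncoding RNAs, had 106 and 60 counts in PMSCV and 2 and 3 in S_PXT1. TXNIP, a glucose-responsive regulator of redox state, had 34 in PMSCV and 2 in S_PXT1. HSP90B1, a chaperone of the endoplasmic reticulum, had 66, 21, 11, 65 and 69 counts, 2.87-fold lower in S_PXT1 (1.73 to 4.93). TFRC, the transferrin receptor, differed from this pattern in that PMSCV was the library apart. It had 132, 5, 4, 12 and 12 counts, 24.1-fold lower in S_PXT1 than in PMSCV (10.1 to 75.4).

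Another 28 of the lower genes were low in S_PXT1 alone. Of these 28, 1 was in the immunoglobulin, epithelial, prostate, muscle or matrix lists, FASN, which makes fatty acids in many cells. Those lists held few of the 1547 covered genes, so this count is no result about the class. Nor is it set against the genes low in both S_PXT1 libraries. Those were by their rule high in the libraries through which such list genes passed the filter. By the rule of the class S_PXT1 was low, with a median level of 23.4 CPM against 120 to 137 in the other 4 libraries. RPN2, a subunit of the enzyme that attaches sugar chains to new secretory proteins, had 127, 6, 110, 191 and 161 counts. S_PXT1 was far below 4 similar libraries, and was 19.3-fold lower than PMSCV (8.63 to 53.6). DNAJC8, a chaperone that works with the spliceosome, had 76, 2, 85, 137 and 94, 34.7-fold lower (9.27 to 291). MEX3C, an RNA-binding ubiquitin ligase, had 99, 11, 107, 119 and 157, 8.21-fold lower (4.39 to 17.0).

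Mitochondrial, transport and metabolic genes were also in this class. SLC25A4, the ADP/ATP carrier, had 40, 0, 27, 59 and 25 counts, at least 12.2-fold lower in S_PXT1. BCAP31, an export and death regulator of the endoplasmic reticulum, had 25, 0, 30, 38 and 23, at least 7.60-fold lower. KPNA1, an importin that carries STAT proteins into the nucleus, had 54, 11, 56, 42 and 42, 4.48-fold lower (2.31 to 9.50). In these 3 genes S_PXT1 was the lowest library, as the rule of the class requires. GMPS, which makes GMP, had 81, 21, 73, 77 and 96, 3.52-fold lower (2.16 to 5.99). ILK, a kinase of integrin adhesions, had 37, 6, 35, 50 and 66, 5.62-fold lower (2.35 to 16.3). FTL, the ferritin light chain, had 52, 12, 27, 48 and 54, 3.95-fold lower (2.08 to 8.14). SLC25A12 is counted in this class on 1 count in PMSCV and 0 in S_PXT1, which supports no fold.

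TUBA1C had the most counts of any lower gene and was low in S_PXT1 alone. This alpha-tubulin had 3489, 1346, 3808, 5332 and 5043 counts, 2.36-fold lower (2.22 to 2.52). The near-identical TUBA1A and TUBA1B, named after their values were seen, were on the other side, at 437 and 792 counts in PMSCV and 578 and 993 in S_PXT1. How reads were shared among these paralogs was not given in the sources used here, so the difference of TUBA1C is uncertain. The 7 covered tubulins summed to a fold of 0.70, and to 1.32 (1.23 to 1.42) without TUBA1C.

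**Figure D4:**
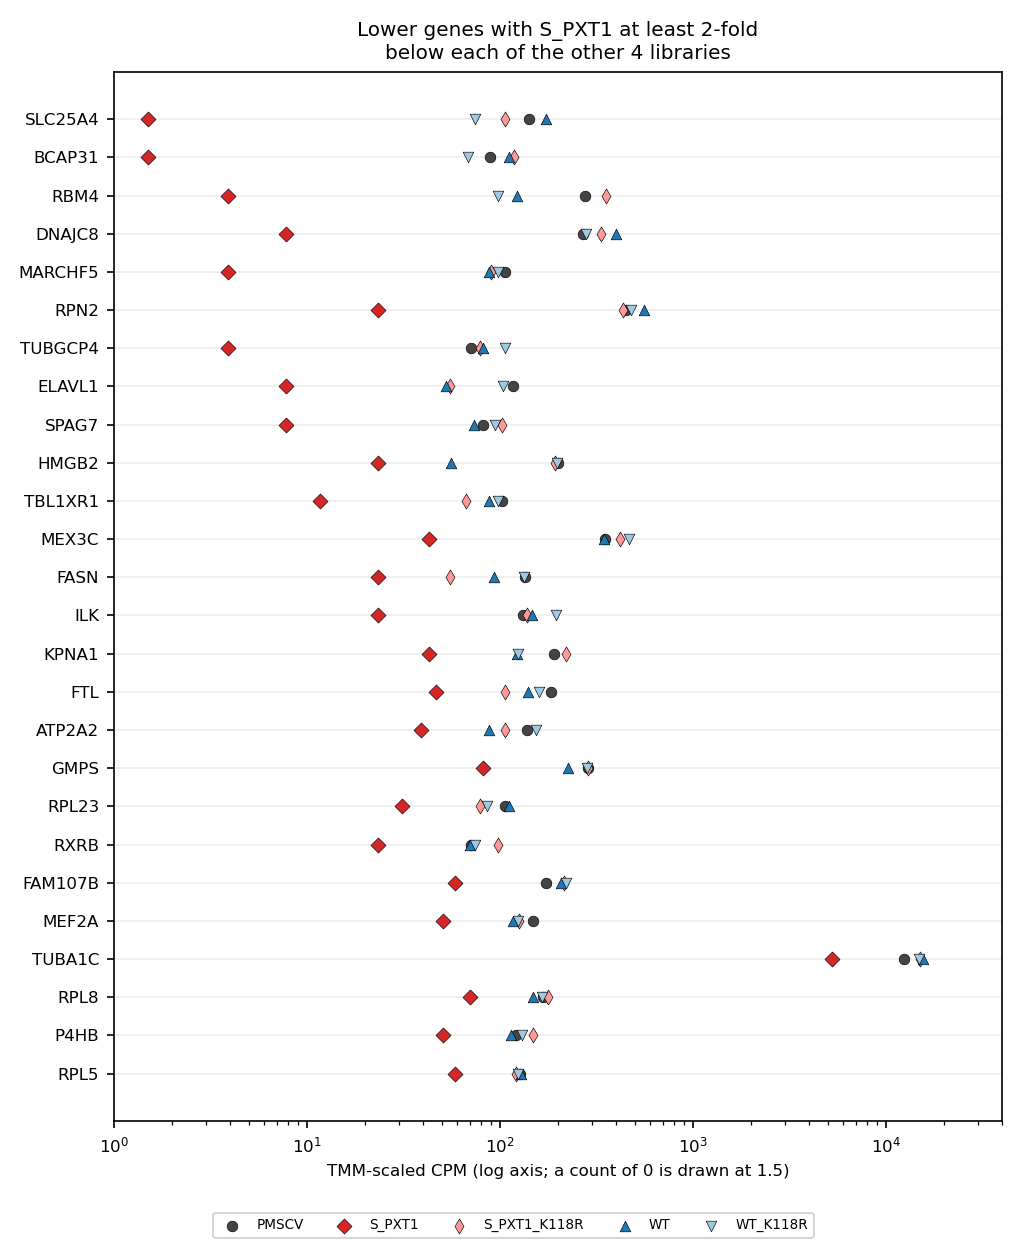
TMM-scaled CPM on a log axis for lower genes with S_PXT1 at least 2-fold below each other library, leaving out genes also low in S_PXT1_K118R, 1 pseudogene and SLC25A12, 1 symbol per library. The S_PXT1 symbol stands apart to the left in every gene, and RBM4 is drawn although its locus had a log2 ratio of 0.09.

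Ribosomal, secretory and mitochondrial lists were among those with medians furthest below the median of covered genes. Genes averaging 20 to under 50 counts had a lower median, 0.02, and the medians of these lists lay below that as well. Of all covered genes 7.82% were lower. Of 38 covered cytosolic ribosomal proteins 35 lay below the median of covered genes, 8 were lower and 0 higher, and the median log2 ratio was -0.45. RPL3, a core protein of the large subunit, had 106 counts in PMSCV and 31 in S_PXT1, 3.12-fold lower (2.07 to 4.82). RPS24 had 40 and 8, and RPL23 had 30 and 8. The summed counts did not follow the median: they were 4779 in PMSCV and 4907 in S_PXT1, a fold of 1.13 (1.08 to 1.17). RPLP0, the stalk protein, held 2032 and 2712 of them, and without it the fold was 0.88 (0.83 to 0.93). Ribosomal protein genes have many processed pseudogenes, and how reads were divided among them is not given.

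Lower translation factors were mainly subunits of eIF3, which assembles the initiation complex. Of 26 covered factors 6 were lower and 0 higher, with a median of 0.08. Of all covered genes 7.82% were lower and 3.49% higher. The eIF3 subunits EIF3A, EIF3L, EIF3H and EIF3E were lower, at log2 ratios of -1.48, -1.25, -1.20 and -1.13, while EIF3J, EIF3C and EIF3M stood at 0.06, 0.07 and 0.29. EIF3A had 31, 10, 3, 38 and 40 counts, low in both S_PXT1 libraries. EIF3L, with 29 counts in PMSCV and 11 in S_PXT1, moved to -0.95, under 2-fold, with its pseudogene rows added. The other lower factors were EIF4A1 and EIF4B, and EIF4B moved from -1.63 to -0.07 when its pseudogene rows were added. EIF4G2, a scaffold for cap-independent initiation, had 4357 counts in PMSCV and 5893 in S_PXT1, a fold of 1.48 (1.43 to 1.54), and the elongation factor EEF1G had 3036 and 3300. The list sum had a fold of 1.27, and of 1.16 (1.13 to 1.20) without EIF4G2. Of 7 covered aminoacyl-tRNA synthetases 1 was lower, EPRS1, with 42 and 11 counts, and the median was -0.23.

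Genes for protein entry, folding and sugar attachment in the endoplasmic reticulum had 14 of 18 covered members below the median of covered genes. The median was -0.31 and the summed fold 0.76 (0.69 to 0.84), with RPN2, HSP90B1, P4HB and PDIA3 lower. P4HB and PDIA3, which form disulphide bonds, had 34 and 27 counts in PMSCV and 13 and 11 in S_PXT1. PDIA3 moved to -0.29 with its pseudogene row added. STT3A, a catalytic subunit of the same enzyme as RPN2, was the highest member, at 0.56. The list of cytosolic chaperones and CCT chaperonin had 17 covered members with a median of -0.14, and HSP90AB1 stood at -0.86. Its 2 lower members were DNAJC8 and HSPD1, the latter a mitochondrial chaperonin. HSPD1 moved from -1.04 to -0.84 with its pseudogene rows added.

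Transcripts of the mitochondrial chromosome were lower as a group. All 11 covered protein genes lay below the median of covered genes, 3 were lower, the median log2 ratio was -0.75 and the summed fold was 0.55 (0.52 to 0.59). MT-CO1, a core subunit of cytochrome oxidase, had 896, 396, 314, 1088 and 1109 counts, low in both S_PXT1 libraries. MT-CYB, of complex III, had 253, 99, 92, 341 and 346. MT-ATP6 had 32 and 1, but moved to -0.57 when overlapping models were summed. The ribosomal RNAs MT-RNR1 and MT-RNR2 were at -1.01 and -0.74. As these genes were low in both S_PXT1 libraries, they too moved with the marker lists and the number of genes detected, whose part was not tested.

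Nuclear genes of the respiratory chain did not share this shift. Their 5 covered members had a median of 0.10, from ATP5F1A at -0.57 to NDUFB9 at 1.07, the only call. The SLC25 and outer membrane channel list had a median of -1.80, but of 0.01 with counts under 3 raised to 3, since SLC25A12 had 1 count in PMSCV and 0 in S_PXT1. SLC25A5, another ADP/ATP carrier, had 39, 10, 63, 91 and 24 counts, and VDAC3 stood at 0.01. Of 9 glycolysis genes TPI1 alone was lower, at 29 and 11 counts, and the median was -0.05. In the iron list of 6, TFRC and FTL were lower and FTH1, the ferritin heavy chain, was at -0.91.

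**Figure D5:**
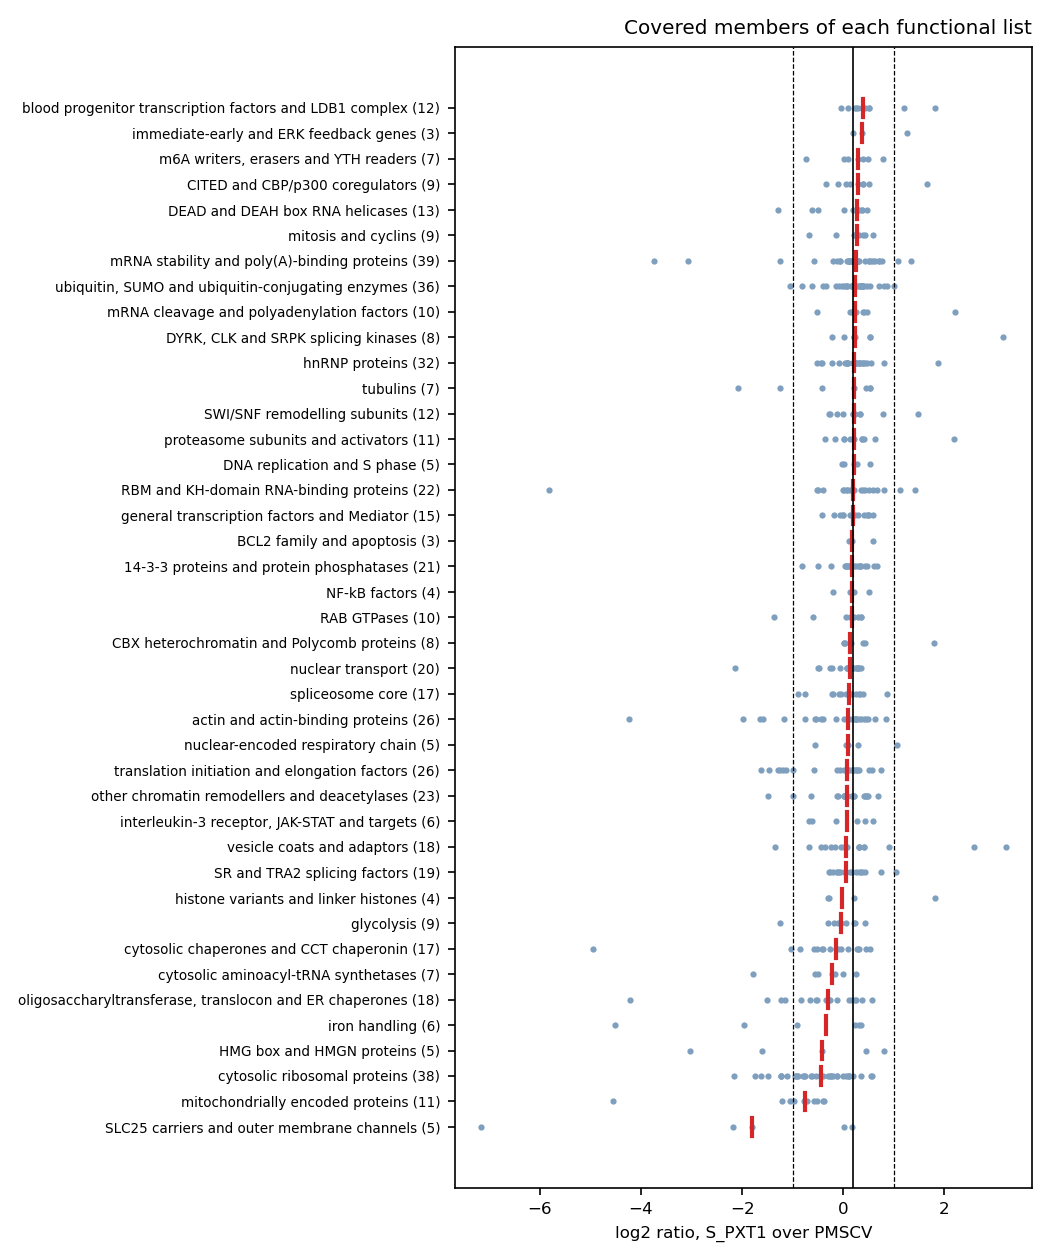
Log2 ratio of S_PXT1 over PMSCV for each covered member (points) and the list median (red bar) of 41 functional lists with at least 3 covered members, whose number is in brackets. The solid line is the median of all covered genes, 0.20, and the dashed lines mark 2-fold; the mitochondrial and ribosomal protein lists lie left of it and the blood progenitor list lies at the top.

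Cytoskeletal and traffic lists stayed near the shift. Of 26 covered actin genes 5 were lower, LCP1, ACTB, TPM4 and ACTG1 among them, and the median was 0.10. ACTB had 93 counts in PMSCV and 27 in S_PXT1, 3.14-fold lower (2.03 to 5.02), with 11 rows named as it or its pseudogenes at a joint log2 ratio of -1.37. RAB GTPases had a median of 0.17 and 1 lower gene of 10, RAB7A, with 9 counts in PMSCV and 3 in S_PXT1 and an interval that included 1. Of 18 vesicle coat and adaptor genes COPG2 and AP2A1 were higher and COPB2 lower, with a median of 0.06.

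Signalling and survival genes of the interleukin-3 pathway were mostly not covered. Of 45 matched genes of the receptor, JAK-STAT signalling and its targets only 6 were covered, and 0 were called, with a median of 0.07. STAT5B, which carries the interleukin-3 signal to the nucleus, had 41 counts in PMSCV and 34 in S_PXT1, a fold of 0.909 (0.560 to 1.47). BCL2L1, the gene of the survival protein BCL-XL, had 73, 100, 8, 89 and 90 counts. S_PXT1_K118R stood apart for BCL2L1, and the fold of S_PXT1 over PMSCV was 1.5 (1.10 to 2.06). BCL2 had 65 and 64 counts. NFKBIA, the NF-kB inhibitor, had 80, 104, 0, 3 and 49 counts, and 0 of 4 covered NF-kB genes were called. SPRED2, low in PMSCV alone, was the only call among 3 immediate-early and ERK feedback genes.

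Genes of DNA replication and cell division were covered only in part and held 0 calls. The 5 replication genes had a median of 0.21 and the 9 genes of mitosis a median of 0.27. TOP1 and POLA1 were at 0.27 and 0.53, and the cohesin subunits SMC1A and RAD21 at 0.59 and -0.68. Nor was any of the 21 covered 14-3-3 and phosphatase genes called, with a median of 0.18, or any of the 15 general transcription factor and Mediator genes, with a median of 0.19. Of 36 covered ubiquitin and SUMO genes BIRC6 was the only one higher, and the median was 0.24. Of 20 nuclear transport genes 1 was lower, KPNA1, and the median was 0.14. None of 42 matched interferon-stimulated genes reached the mean of 20 counts.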

How the data were processed

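RNA-seq of 5 Ba/F3 libraries was used as deposited: per the file headers, the authors gave raw read counts per gene beside FPKM. FastQC, HISAT2 2.2.1 and cutadapt 1.9 appear in the submitters' processing notes. Which counter, annotation, build and strandedness they used was not given in the sources used here. Of the 6226 genes counted in both libraries, 99.98% had a deposited FPKM ratio equal to the count ratio times 1 factor, within 0.01 (log2). From the counts, TMM factors over 5 libraries (edgeR 4.0.16, R 4.3.3), log2 ratios on CPM + 1 and exact 95% ratio intervals (SciPy 1.17.1) were computed. A fold against 0 counts used a floor of 3 counts per library. No test was possible with 1 library per group, and the calculation was checked on simulated data.

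The comparison, the 45 functional and 13 marker lists (1979 of 1986 symbols matched) and the rules were chosen with earlier results of these data known. Named were the 20 highest and 20 lowest ratios, all covered blood progenitor and CITED list members, up to 4 members per other list furthest from the median, the 5 highest S_PXT1 counts, and genes with 1 or 2 libraries apart. Clone, pseudogene and read-through names were left out of this rule. Other genes were named after their values were seen, including SSBP3, RPLP0, EIF3J, EIF3C, EIF3M, EIF3H, EIF3E, ACTG1 and STT3A. Alternatives covered scaling (DESeq2 1.42.0, total counts, median centring, FPKM), pseudocounts, filters, fold thresholds and the summing of models. There were 0 value columns without a library. A few genes and 1 list are not reported here.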

Additional observations from a re-analysis of the deposited data

How the results depend on the processing

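The depth limited the comparison, and the calls moved with the filter on counts. At a mean of at least 10 counts 87 genes were higher and 351 lower, around a median of 0.089. At a mean of at least 50 there were 24 and 30 (0.25), and at 100 there were 12 and 7 (0.28). With every gene counted in either library there were 1435 and 6650 of 12659 (-1.25). At 1.5-fold 165 were higher and 194 lower, and at 3-fold 29 and 76. The median was 0.26 with DESeq2 size factors, 0.11 with total counts, 0.10 with FPKM and 0.00 when centred on itself, and these 4 scalings gave 41 to 60 higher and 114 to 153 lower genes. Of 97 called genes named by rule, 90 to 97 kept the 2-fold call under 8 alternatives. With overlapping models summed RBM4 turned to 0.088 and SRCAP to 0.26. The cause of these changes was not tested. Chosen after seeing the data were a mean of 20 over the 2 libraries alone, which gave 49 higher and 89 lower, and counts under 3 raised to 3, which gave 54 and 120. Of 53 lists 52 kept their side of the median of covered genes in 8 settings of scaling, pseudocount and summing, RBM and KH-domain proteins being the exception. No paired analysis was possible because each group held 1 library.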
